A study of Homo sapiens with 36 samples.

Results

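The mitochondrial genome encodes the catalytic core of the respiratory chain, and 6 of its genes encode subunits of complexes III, IV and V. They are MT-CYB for complex III, MT-CO1, MT-CO2 and MT-CO3 for complex IV, and MT-ATP6 and MT-ATP8 for complex V. The genes were chosen by symbol, and all 6 were found among the 60675 genes of the count table. Their messenger RNAs were measured by RNA sequencing in 36 libraries, which formed 12 groups of 3 replicates. SW1783 is a human astrocytoma line and HT29 is a human colorectal adenocarcinoma line. Both were treated for 24 h. In batch B, each line received vehicle (0.1% DMSO) or an extract in hot water of ACD (Aconitum carmichaeli Debeaux, a monkshood whose root is used in herbal medicine) at 20, 100 or 500 µg/mL, the low, medium and high dose. In batch A, each line received vehicle (0.1% DMSO) or 10 µM wortmannin, the positive control, which blocks the lipid kinase PI3K. The comparisons asked how each treatment changed these transcripts against the vehicle of its own batch, and whether the lines differed in that change. Each line stands for itself only, and the lines were grown in different media, so line and medium cannot be told apart. The labels do not say that replicates were separate cultures, so p-values measure the spread between these libraries, which may be technical.

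Complex III passes electrons from ubiquinol to cytochrome c, complex IV passes them from cytochrome c to oxygen, and complex V uses the proton gradient to make ATP. MT-CYB is the cytochrome b of complex III. MT-CO1 and MT-CO2 carry the redox centres of complex IV, and MT-CO3 is the third core subunit. MT-ATP6 forms part of the proton channel of complex V, and MT-ATP8 is a small subunit of its membrane sector. Mitochondrial genes lie close together and are transcribed as long precursors. Transfer RNAs that lie between most genes are cut out, and the released mRNAs receive short poly(A) tails.

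All 6 genes lie on the plus strand of chromosome M in GRCh38 (GENCODE v44 annotation, protein-coding, without introns), whose length there is 16569 bases. MT-CO1 spans 5904 to 7445, MT-CO2 spans 7586 to 8269, MT-ATP8 spans 8366 to 8572, MT-ATP6 spans 8527 to 9207, MT-CO3 spans 9207 to 9990 and MT-CYB spans 14747 to 15887. The last 24 bases of each gene are shown to show how the genes end and where neighbours share bases. The capitals mark the stop codon, or the single base of it that the gene encodes.
MT-CO1: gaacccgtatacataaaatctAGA
MT-CO2: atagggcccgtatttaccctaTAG
MT-ATP8: cattcattgcccccacaatccTAG
MT-ATP6: ctctacctgcacgacaacacaTAA
MT-CO3: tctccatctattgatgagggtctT
MT-CYB: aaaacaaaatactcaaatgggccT
MT-CO3 and MT-CYB have lengths of 784 and 1141 bases, each 1 base over a multiple of 3. Their stop codons are known to be completed by the poly(A) tail. MT-ATP8 and MT-ATP6 overlap by 46 bases (chrM:8527-8572), shown next with the start of MT-ATP6 and the end of MT-ATP8 in capitals.
MT-ATP8/MT-ATP6 overlap: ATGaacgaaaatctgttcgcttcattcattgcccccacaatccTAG
MT-ATP6 and MT-CO3 share 1 base (chrM:9193-9221 is shown, with the start codon of MT-CO3 in capitals).
MT-ATP6/MT-CO3 junction: cacgacaacacataATGacccaccaatca
Reads from the overlap could belong to either gene. MT-ATP8 is 207 bases long, and how reads from the overlap were divided between the genes was not tested. Values are given per gene, since genes that overlap need not be separate mRNAs.

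The libraries held between 15941255 and 33866644 counts. With a count of 0 a level of up to 3 counts is possible, which is 0.089 to 0.188 CPM (counts scaled to a common library total), a floor for counting error only that every value of the 6 genes exceeded. Marker genes matched the labels of both lines. VIM and COL1A2 had medians of 4534 and 2022 CPM over the 18 SW1783 libraries and of 0.0358 and 0 CPM in HT29. EPCAM and KRT20 had medians of 534 and 253 CPM in HT29 and of 0.0386 and 0 CPM in SW1783. FN1 (medians of 5306 and 1.82 CPM in SW1783 and HT29), CDH1 (0.0431 and 451 CPM), KRT8 (18.8 and 6579 CPM) and CD44 (2694 and 527 CPM) differed in the same directions. Library pairs were also compared by a chi-square statistic per degree of freedom, which is near 1 for sampling noise alone. Replicate 2 of the HT29 high dose stood apart, with 70.8 and 71.5 against replicates 1 and 3, which gave 10.1 against each other. Other pairs within groups gave 2.43 to 21.9 in HT29 and 1.68 to 3.77 in SW1783. Same-numbered vehicles of the 2 batches gave 1.46 to 1.64, closer than vehicles with different numbers (2.04 to 17.7), and the labels do not say whether they share a culture.

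Without treatment, the RNA of all 6 genes was more abundant in HT29 than in SW1783. Levels are given in CPM per kilobase of gene length, so that genes can be compared, as mean ± SD (n = 3, vehicle of batch B). In SW1783, MT-CO1 was highest (7342 ± 178), followed by MT-CO2 (7066 ± 23.7), MT-CO3 (5600 ± 131), MT-ATP6 (3992 ± 158), MT-CYB (3044 ± 170) and MT-ATP8 (886 ± 80.7). No neighbours in this order overlapped. In HT29, MT-CO3 was highest (18084 ± 2150), followed by MT-CO2 (14549 ± 1903), MT-ATP6 (11338 ± 1141), MT-CO1 (11278 ± 375), MT-CYB (6770 ± 690) and MT-ATP8 (2856 ± 1246). There, the ranges of MT-CO3 and MT-CO2 overlapped, as did those of MT-ATP6 and MT-CO1. In both lines MT-CYB and MT-ATP8 were the lowest, and MT-CO1 was first in SW1783 but level with MT-ATP6 in HT29.

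The difference between the untreated lines was tested with DESeq2 on counts scaled by size factors (normalized counts). A gene was called when its adjusted p was under 0.05 and its change exceeded 1.5-fold, or 0.585 on the log2 scale. All 6 genes were called lower in SW1783, where 24.2% of all genes tested were called lower. The log2 difference was largest for MT-CO3 (-1.68 ± 0.112 SE, adjusted p = 3.79e-50) and MT-ATP8 (-1.68 ± 0.234, adjusted p = 2.41e-12). It was -1.49 ± 0.182 for MT-ATP6, -1.14 ± 0.201 for MT-CYB, -1.03 ± 0.155 for MT-CO2 and -0.60 ± 0.121 for MT-CO1 (adjusted p = 1.65e-06 for MT-CO1). MT-CO1 lay at the 1.5-fold threshold, with -0.58 and no call without replicate 1 of the HT29 vehicle or without replicate 2 of the SW1783 vehicle. Between the vehicles of batches A and B, 0 of the 6 genes were called in either line by DESeq2 or edgeR, and 0 had an unadjusted p under 0.05 (0.00348% of all genes were called in SW1783 and 0.0% in HT29). That test ignores the replicate numbers, which paired these vehicles (deviations from group means of same-numbered vehicles correlated at 0.232 to 0.294 in SW1783 and 0.42 to 0.771 in HT29). With the number as a block, again 0 were called, and 0 in SW1783 but 4 in HT29 had an adjusted p under 0.05. Those were MT-ATP6 (0.07 ± 0.008, batch B minus batch A, adjusted p = 3.45e-15), MT-CO3 (0.05 ± 0.007), MT-CO1 (0.03 ± 0.007) and MT-ATP8 (-0.12 ± 0.019). In bulk samples, fewer cells and less RNA per cell cannot be told apart.

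**Figure D1:**
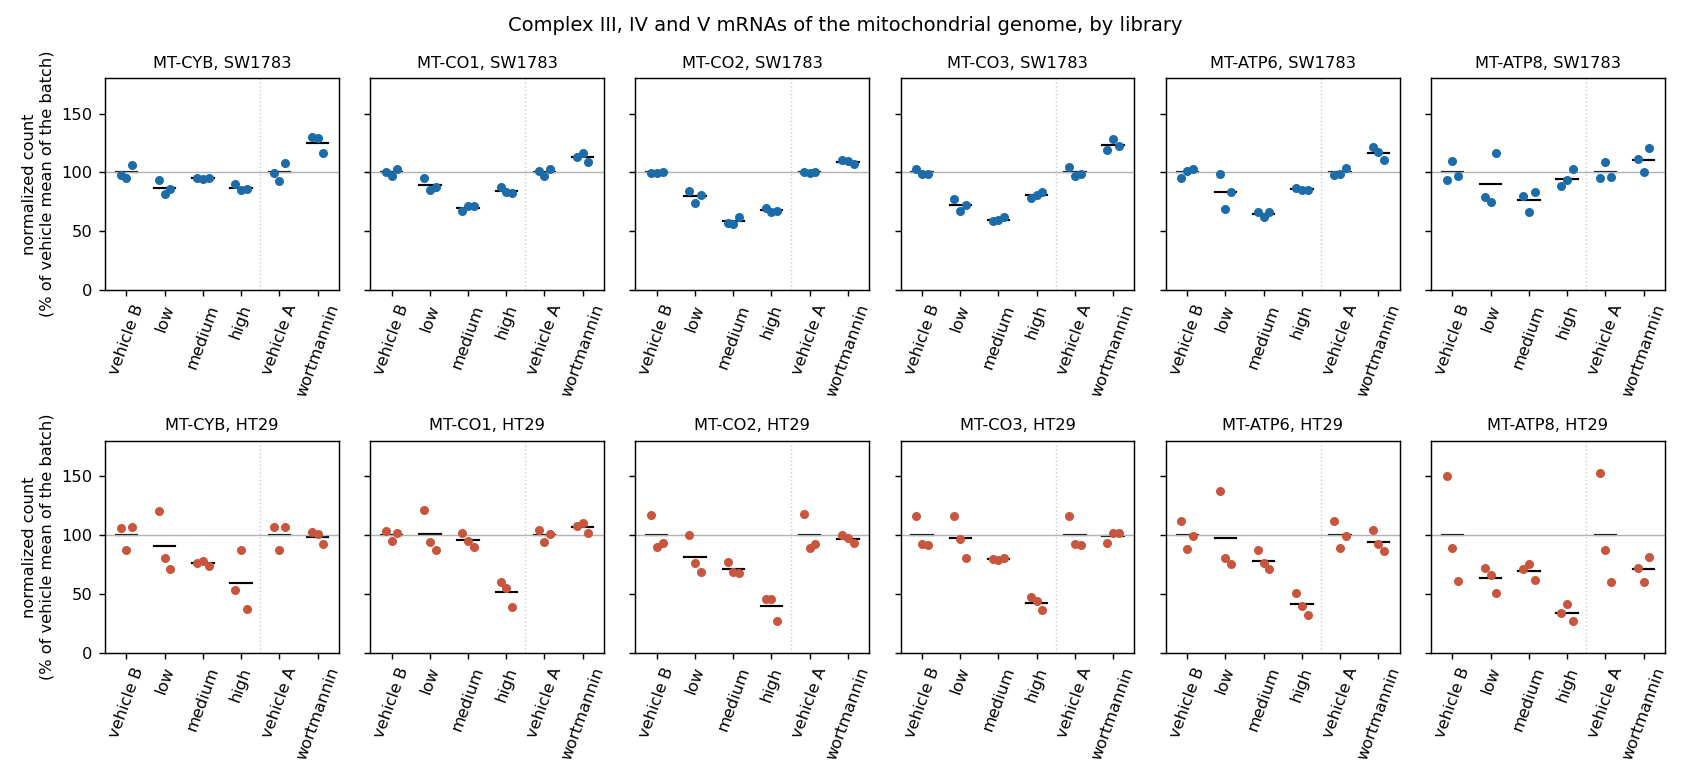
Normalized counts of the 6 genes in each library, as a percentage of the mean of the 3 vehicle libraries of the same line and batch (points: libraries in the order of replicates 1, 2 and 3, bars: group means, grey line: 100%). In HT29 the high dose libraries lie below the vehicles for every gene except MT-CYB, of which replicate 2 overlaps them, and in SW1783 the lowest ACD group is the medium dose for all genes except MT-CYB.

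At the high dose of ACD, 5 of the 6 genes fell in HT29, and all 3 treated libraries lay below all 3 vehicle libraries (9.23% of well-counted genes, those averaging at least 100 normalized counts, did so). The 5 were the genes of complexes IV and V, and their log2 fold changes ran from -0.97 to -1.55. DESeq2 called 1.63% of all genes tested as lower in this comparison and 2.92% in either direction. All 6 genes passed the filter on low counts in every comparison.

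Among the complex IV genes, MT-CO1 had normalized counts of 425999, 389465 and 418512 in the vehicle libraries and of 247021, 224586 and 159624 at the high dose. It fell by 0.97 ± 0.161 on the log2 scale (adjusted p = 1.78e-07). MT-CO2 had 276688, 210960 and 219501 against 107177, 108359 and 63891 (log2 fold change of -1.34 ± 0.203, adjusted p = 4.62e-09). In MT-CO1 and MT-CO2, replicate 3 of the high dose was the lowest library by some distance. MT-CO3 had 389641, 310745 and 306895 against 158491, 147939 and 121585, with the smallest standard error of the 6 genes (log2 fold change of -1.23 ± 0.148, adjusted p = 1.73e-14).

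For complex V, MT-ATP6 had normalized counts of 205059, 161287 and 182048 in the vehicles and of 92787, 73135 and 59154 at the high dose (log2 fold change of -1.28 ± 0.223, adjusted p = 7.03e-07). MT-ATP8 had 21071, 12520 and 8557 against 4756, 5833 and 3760, the largest estimate and the largest standard error of the 6 (-1.55 ± 0.27, adjusted p = 6.79e-07). Its vehicle libraries were spread widely, and the batch A vehicles of HT29 held similar values under the same numbers (21631, 12400 and 8524). The groups did not overlap for either gene.

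MT-CYB of complex III did not pass the test, although it was called with TMM scaling (-0.76, adjusted p = 0.0431) and with the replicate number as a block (-0.80, adjusted p = 0.0365). It had 193346, 159122 and 195849 in the vehicles and 98045, 159826 and 68303 at the high dose, so replicate 2 reached the lowest vehicle while the others lay below all vehicles (-0.75 ± 0.261, adjusted p = 0.0534). Without replicate 2, the library that stood apart, MT-CYB was called (-1.14 ± 0.254, adjusted p = 1.75e-04, where the adjusted p over all alternatives ranged from 1.75e-04 to 0.243). The other 5 genes were called without it too, at -1.02 for MT-CO1, -1.46 for MT-CO2, -1.26 for MT-CO3, -1.27 for MT-ATP6 and -1.72 for MT-ATP8. These 5 were called under each of the 13 alternatives with a test.

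At the lower doses in HT29 none of the 6 genes was called by DESeq2 or edgeR, against 0.827% of all genes at the medium dose and 0.321% at the low dose. At the medium dose 2 genes had an unadjusted p under 0.05, MT-CO2 (-0.49 ± 0.203) and MT-CO3 (-0.33 ± 0.148). MT-CO2 had 182007, 162298 and 159626 and MT-CO3 had 268195, 264161 and 269419, below all of their vehicles. In all, 4 of the 6 genes did not overlap the vehicle and were lower (MT-CO2, MT-CO3, MT-ATP6 and MT-CYB), against 13.4% of well-counted genes. At the low dose all 6 overlapped the vehicle, and only MT-ATP8 had an unadjusted p under 0.05 (-0.66 ± 0.27, adjusted p = 0.423). Between the medium and the high dose, 5 genes were called lower at the high dose (0.312% of all genes were), with log2 differences of -0.85 for MT-CO2 to -1.03 for MT-ATP8. MT-CYB differed by -0.35 ± 0.261 (adjusted p = 0.683). That count of 5 was 2 with edgeR, where MT-CO2, MT-ATP6 and MT-ATP8 had adjusted p-values of 0.0956, 0.104 and 0.151. It was also 2 without replicate 1 of the medium dose, and 3 without replicate 3 of the high dose.

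In SW1783 the medium dose gave the lowest mean levels of the complex IV and V genes, while MT-CYB was lowest at the high dose (mean normalized counts of 61079, against 66732 at the medium and 61289 at the low dose). At the medium dose 3 genes were called, all lower, against 1.48% of all genes called lower and 3.81% in either direction. MT-CO2 had normalized counts of 97613, 97553 and 98461 in the vehicles and of 55329, 54890 and 61102 at the medium dose (-0.78 ± 0.053, adjusted p = 2.97e-46). MT-CO3 had 91407, 87455 and 87870 against 51855, 52741 and 55233 (-0.74 ± 0.05, adjusted p = 5.06e-47). The vehicles and the treated libraries of MT-CO2 and MT-CO3 formed tight groups that lay far apart. MT-ATP6 had 52621, 55738 and 56795 against 36462, 34356 and 36330 (-0.62 ± 0.109, adjusted p = 1.8e-07), close to the 1.5-fold threshold.

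The remaining genes stayed under that threshold at the medium dose. MT-CO1 had 229745, 222706 and 235365 in the vehicles and 154511, 162921 and 162707 at the medium dose, without overlap (-0.52 ± 0.048, adjusted p = 1.42e-25). MT-ATP8 had 3467, 4085 and 3596 against 2970, 2447 and 3080 (-0.39 ± 0.181, adjusted p = 0.0878). MT-CYB had 68860, 67167 and 75020 against 67234, 66110 and 66852, which overlapped (-0.08 ± 0.056, adjusted p = 0.328). In all, 5 of 6 genes did not overlap the vehicle and were lower, against 27.4% of well-counted genes.

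At the high dose in SW1783 no member was called, although 18.2% of all genes were, by DESeq2 (edgeR called 0 members as well). An unadjusted p under 0.05 was found for 5 members, and 4 had an adjusted p under 0.05 with a change below 1.5-fold (22.6% of all genes were lower with an adjusted p under 0.05). MT-CO2 came closest to the threshold with 67940, 64973 and 65988 (-0.56 ± 0.053, adjusted p = 5.43e-25). The other values were -0.31 ± 0.05 for MT-CO3, -0.25 ± 0.048 for MT-CO1, -0.20 ± 0.056 for MT-CYB, -0.23 ± 0.109 for MT-ATP6 (adjusted p = 0.0798) and -0.08 ± 0.181 for MT-ATP8. All genes but MT-ATP8 lay below the vehicles without overlap, as did 36.2% of well-counted genes.

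The step from the medium to the high dose in SW1783 had positive values for the complex IV and V genes. MT-CO3 was higher by 0.43 ± 0.05 on the log2 scale (adjusted p = 8.66e-17), MT-ATP6 by 0.40 ± 0.109, MT-CO1 by 0.27 ± 0.048 and MT-CO2 by 0.22 ± 0.053 (adjusted p = 2.27e-04 for MT-CO2). MT-ATP8 differed by 0.31 ± 0.181 (adjusted p = 0.164) and MT-CYB by -0.13 ± 0.056 (adjusted p = 0.0534). None of these steps reached 1.5-fold, so 0 members were called by DESeq2 or edgeR, while 10.2% of all genes were called and 5 members had an unadjusted p under 0.05. The low dose gave 0 calls in SW1783 with either tool (0.118% of all genes), 5 unadjusted p-values under 0.05 and 4 adjusted ones (1.24% of all genes were lower with an adjusted p under 0.05). MT-CO3 was the clearest of these, with 68861, 59962 and 64049 (-0.47 ± 0.05, adjusted p = 1.21e-17). MT-CO2 followed with -0.33 ± 0.053, MT-CYB with -0.20 ± 0.056 and MT-CO1 with -0.16 ± 0.048, and these 4 did not overlap the vehicle (11.4% of well-counted genes).

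**Figure D2:**
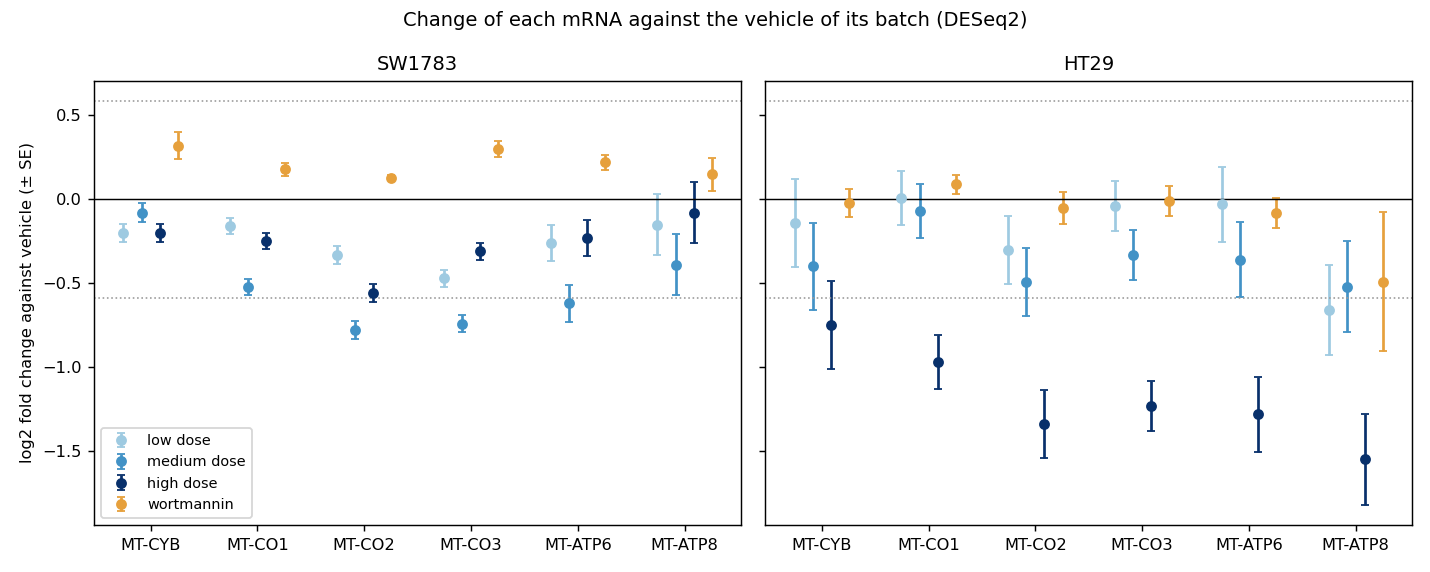
Log2 fold change of each gene against the vehicle of its batch, with standard errors from DESeq2 (n = 3 per group, dotted lines: 1.5-fold). The high dose points of HT29 lie between -0.75 and -1.55, and those of SW1783 between -0.08 and -0.56.

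The lines differed in their response to the high dose. The difference of the log2 fold changes, SW1783 minus HT29, was called for 5 of 6 genes, against 6.86% of all genes called in this direction and 14.6% in either. It was 0.68 ± 0.172 for MT-CO1 (adjusted p = 5.27e-04), 0.74 ± 0.219 for MT-CO2 (adjusted p = 0.00414), 0.89 ± 0.158 for MT-CO3 (adjusted p = 2.6e-07), 1.02 ± 0.258 for MT-ATP6 (adjusted p = 5.63e-04) and 1.44 ± 0.331 for MT-ATP8 (adjusted p = 1.21e-04). In these 5 genes the fall was larger in HT29. MT-CYB had 0.51 ± 0.285 (adjusted p = 0.19). At the medium dose no difference was called by DESeq2 or edgeR (3.34% of all genes were), 2 had an unadjusted p under 0.05, and the estimates ran from -0.47 ± 0.172 for MT-CO1 to 0.30 ± 0.285 for MT-CYB. At the low dose none was called by either tool (0.267% of all genes), and MT-CO3 alone had an unadjusted p under 0.05 (-0.46 ± 0.158, adjusted p = 0.167).

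Wortmannin moved the members little. In SW1783 none was called by DESeq2 or edgeR (2.72% of all genes were), but 5 had an unadjusted and an adjusted p under 0.05, all with higher values. Of all genes, 33.9% had an adjusted p under 0.05 in either direction, and 20.1% had one and were lower. MT-CYB had 81081, 76030 and 88432 in the batch A vehicles and 106528, 105610 and 95335 with wortmannin (0.32 ± 0.08, adjusted p = 2.83e-04). MT-CO3 had 108633, 100907 and 102953 against 124132, 133813 and 127854 (0.30 ± 0.045, adjusted p = 2.14e-10). MT-ATP6 differed by 0.22 ± 0.047, MT-CO1 by 0.18 ± 0.039 and MT-CO2 by 0.13 ± 0.015, and the 5 genes lay above the vehicles without overlap (25.7% of well-counted genes did). In HT29 all 6 overlapped the vehicle, none was called by either tool (2.65% of all genes were), none had an unadjusted p under 0.05, and the values ran from -0.49 ± 0.414 for MT-ATP8 to 0.09 ± 0.058 for MT-CO1. No difference between the lines was called for wortmannin by either tool (3.36% of all genes), while 3 had an unadjusted p under 0.05. MT-CO3 (0.30 ± 0.105, adjusted p = 0.0369) and MT-CYB (0.32 ± 0.114, adjusted p = 0.0359) had differences below 1.5-fold.

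As a share of all counts of a library, the 6 genes held 2.65 to 2.74% in the SW1783 vehicles of batch B, 2.05 to 2.35% at the low dose, 1.68 to 1.77% at the medium dose and 2.00 to 2.07% at the high dose. No ACD group overlapped the vehicle there. In HT29 they held 5.35 to 6.25% in the vehicles, 4.59 to 6.75% at the low dose, 4.52 to 4.91% at the medium dose and 1.88 to 2.72% at the high dose. With wortmannin the share was 3.08 to 3.26% in SW1783 (vehicles 2.63 to 2.76%) and 5.67 to 5.99% in HT29 (vehicles 5.24 to 6.10%). The high dose range of HT29 overlapped that of the SW1783 vehicles, whereas the other HT29 groups lay above it.

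**Figure D3:**
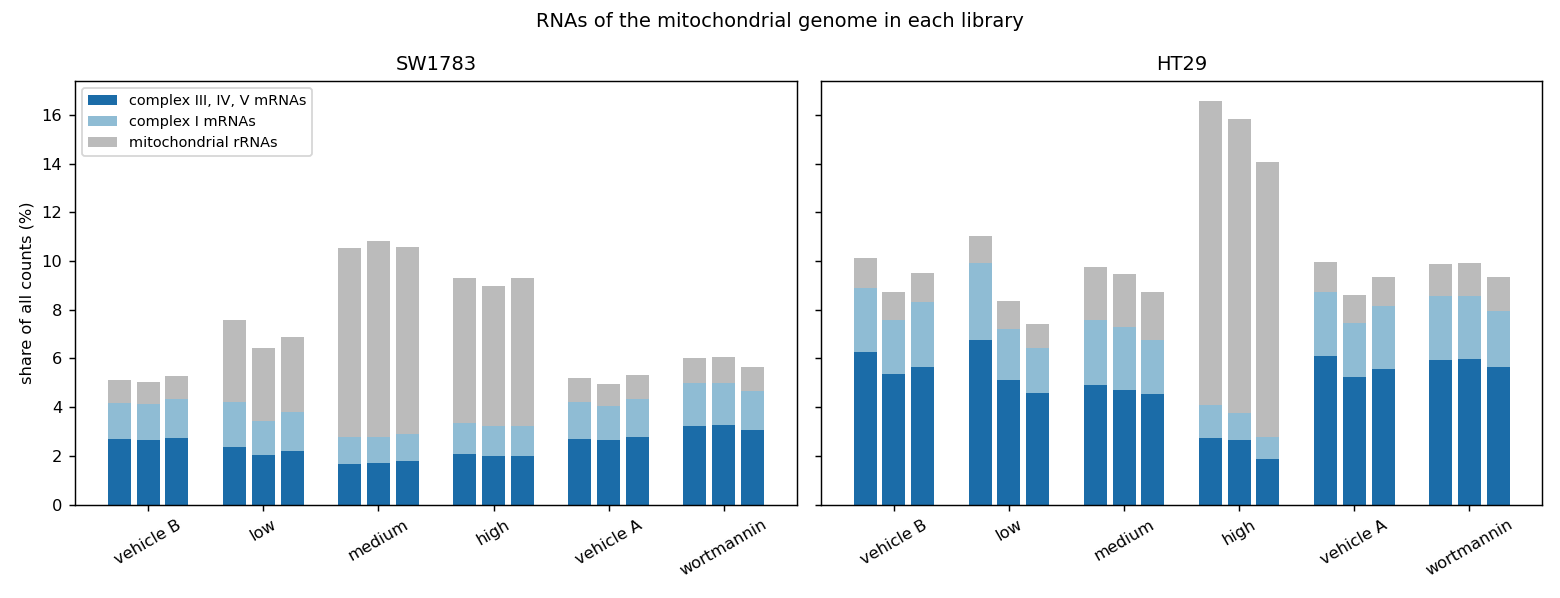
Percentage of all counts of each library held by the complex III, IV and V mRNAs, by the complex I mRNAs of the mitochondrial genome and by the mitochondrial ribosomal RNAs (bars: libraries in the order of replicates 1, 2 and 3). At the high dose in HT29 the complex III, IV and V mRNAs hold 1.88 to 2.72% and the ribosomal RNAs 11.3 to 12.5%.

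The ribosomal RNAs of the same genome, MT-RNR1 and MT-RNR2, moved the other way at the high dose. Their joint share was 0.912 to 0.960% in the SW1783 vehicles and 5.76 to 6.06% at the high dose, and 1.14 to 1.22% and 11.3 to 12.5% in HT29. In SW1783 it was 3.01 to 3.33% at the low and 7.67 to 8.05% at the medium dose. It was thus highest at the medium dose, where the complex IV and V genes were lowest. In HT29 it was 0.982 to 1.14% at the low dose, not above the vehicles, and 1.96 to 2.18% at the medium dose. MT-RNR1 rose by a log2 fold change of 4.30 in SW1783 and of 4.57 in HT29 at the high dose. How ribosomal RNA was removed from the libraries was not stated, and its part in the values of the 6 genes was not tested. Size factors computed without the mitochondrial genome left every call of the 6 genes against vehicle as it was. They moved the median log2 fold change of all genes at the high dose by only -0.001 in HT29 and 0.0 in SW1783. That setting could therefore hardly change a call, and it cannot decide the part of the ribosomal RNA. Nuclear-encoded RNAs that lack a poly(A) tail, from a list of 5, held 0.00106 to 0.00185% of counts in the HT29 vehicles and 0.00754 to 0.0335% at the high dose, highest in replicate 2. They held 0.0102 to 0.0162% at the low and 0.00892 to 0.0138% at the medium dose of HT29, where no member was called, so they were above the vehicles at all 3 doses. At the high dose in HT29, 2 of the 4 such genes tested were called higher (2.92% of all genes were called in either direction). They were RN7SL2 and RN7SL1 (the RNA of the signal recognition particle), with log2 fold changes of 4.13 and 3.59. In SW1783 the share was 0.000577 to 0.00185% in the vehicles and 0.000301 to 0.000781% at the high dose. There, 0 of 4 were called higher (8.66% of all genes were) and 1 was called lower (9.57% of all genes were). The part of these RNAs in the result was not tested.

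Among the complex I genes, which lie on the same genome, 3 of 7 were called lower at the high dose in HT29 (1.63% of all genes were). They were MT-ND4 (-1.59), MT-ND4L (-1.35) and MT-ND3 (-1.30). These 3 follow MT-CO3 in the gene order, and the values from MT-CO2 to MT-ND4 lay between -1.23 and -1.59. MT-ND1 and MT-ND2, which come before MT-CO1, had -0.73 ± 0.269 and -0.62 ± 0.221 (adjusted p = 0.075 and 0.0642), and MT-ND5, next to MT-CYB on this strand, had -0.48 ± 0.229. In SW1783, 0 of 7 were called at the high dose by DESeq2 or edgeR (DESeq2 called 18.2% of all genes). There, 3 had an unadjusted and an adjusted p under 0.05, all lower (22.6% of all genes were lower with an adjusted p under 0.05). At the medium dose 2 were called lower, MT-ND4L (-0.78) and MT-ND4 (-0.76), against 1.48% of all genes. At the low dose MT-ND1 (0.75) and MT-ND2 (0.70) rose (0.0967% of all genes did) while no member was called. The complex III, IV and V genes held 55.6 to 59.7% of the mitochondrially encoded mRNA counts at the low dose, against 63.4 to 64.4% in the vehicles.

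**Figure D4:**
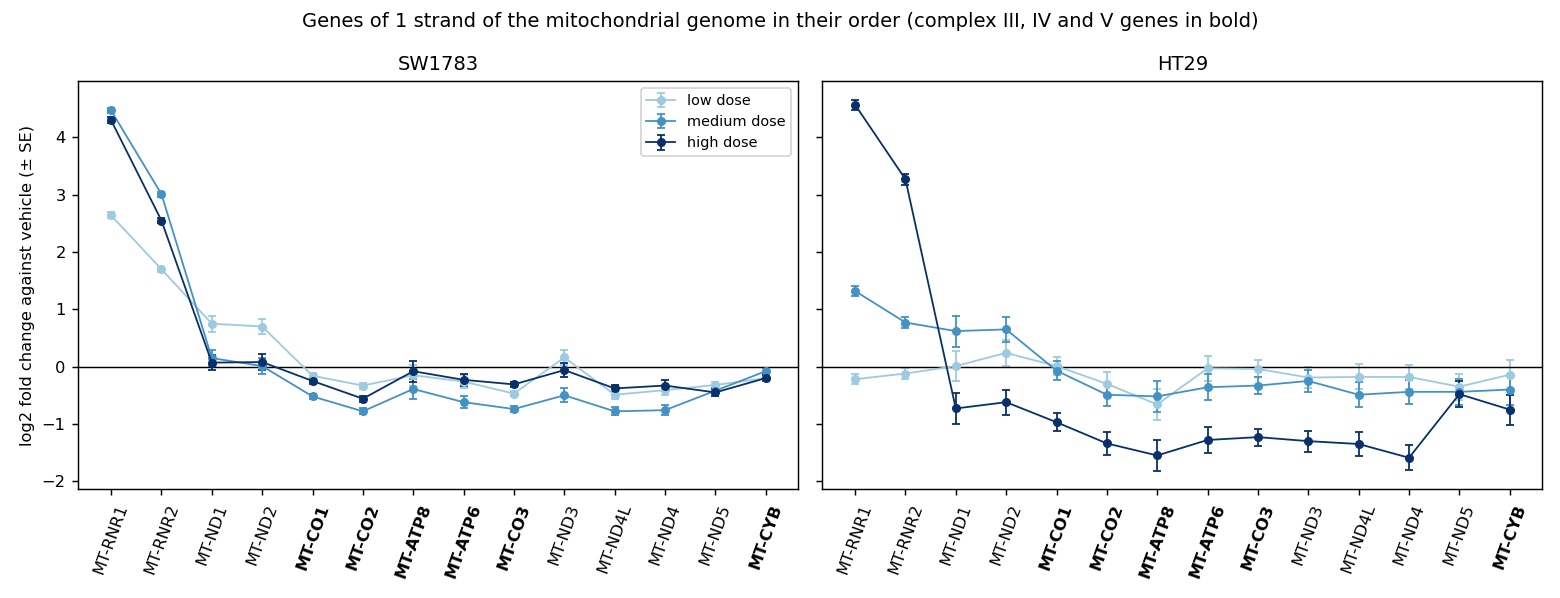
Log2 fold change against vehicle at each ACD dose (± SE, DESeq2) for the genes of the strand that carries the 6 genes, in their order on the mitochondrial genome (axis: gene order, not to distance). The ribosomal RNAs lie above 0 at the high dose in both lines, and the stretch from MT-CO2 to MT-ND4 lies between -1.23 and -1.59 at the high dose in HT29.

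Ratios of 2 members within a library do not depend on the scaling between libraries. They were examined after the values had been seen, and an exact two-sided permutation test of 3 against 3 libraries cannot give a p below 0.1. The ratio of MT-CYB to MT-CO2 counts was 0.689 to 0.762 in the SW1783 vehicles and 1.09 to 1.22 at the medium dose, and it averaged 0.921 at the high dose against 0.719 in the vehicles. In HT29 it averaged 1.15 at the high dose, with 0.915, 1.47 and 1.07 in replicates 1, 2 and 3. The HT29 vehicles had 0.699 to 0.892 (mean of 0.782), so replicate 1 lay close to them. In SW1783 it was also higher without overlap at the low dose (0.768 to 0.799, mean of 0.788 against 0.719). The same held with wortmannin (0.793 to 0.862 against 0.681 to 0.789, means of 0.837 and 0.730). Both of these ranges began just above the highest vehicle. In HT29 the ratio overlapped the vehicle under the other treatments. These 5 groups that did not overlap each had an exact permutation p of 0.1, the smallest possible. The ratio of MT-CO2 to MT-CO1 was lower than the vehicle without overlap at all 3 doses in both lines. It averaged 0.427 in the SW1783 vehicles and 0.380, 0.357 and 0.343 at the low, medium and high dose, and 0.572 in the HT29 vehicles and 0.461, 0.428 and 0.439. With wortmannin it overlapped the vehicle in both lines. The ratio of MT-CO3 to MT-CO1 did not overlap the vehicle in 4 of 8 comparisons. In SW1783 it was lower at the low and medium dose (means of 0.314 and 0.333 against 0.388) and higher with wortmannin (0.421 against 0.385), and in HT29 it was lower at the medium dose (0.683 against 0.815). Of the 32 ratios examined (4 ratios, 4 treatments, 2 lines), the 8 of MT-ATP8 to MT-ATP6 all overlapped the vehicle.

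**Figure D5:**
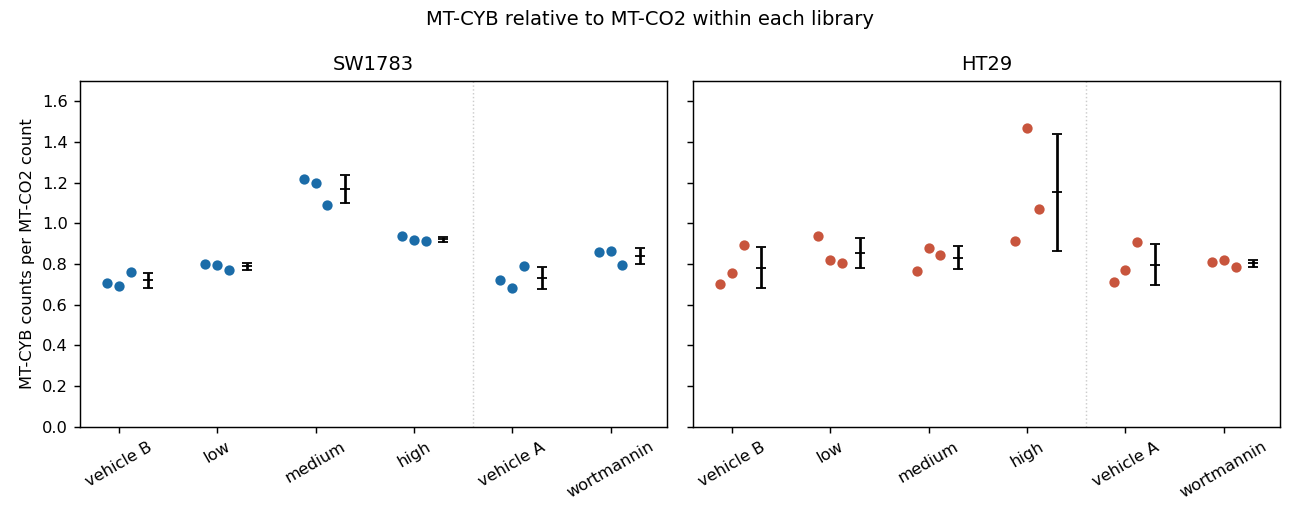
Counts of MT-CYB per count of MT-CO2 within each library (points: libraries, bars: mean ± SD, n = 3). The ratio is highest at the medium dose in SW1783, where it averages 1.17, and at the high dose in HT29, where it averages 1.15.

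The nuclear genes whose proteins join these subunits did not move with them at the high dose in HT29. At that dose 0 of 9 tested subunits of complex III, 0 of 12 of complex IV and 0 of 17 of complex V were called by DESeq2 (2.92% of all genes were). Their median log2 fold changes were 0.07, 0.05 and 0.04, against 0.007 for all genes and -1.26 for the 6 mitochondrial genes. An unadjusted p under 0.05 was found for 0, 0 and 1 of them, and edgeR called 0. Of 32 assembly factors and 27 genes for mitochondrial transcription and RNA handling 0 were called by either tool, with 2 and 6 unadjusted p-values under 0.05. At the medium dose in HT29 the medians of the nuclear subunits were -0.11, -0.23 and -0.18, against -0.38 for the mitochondrial genes. At the low dose they were -0.13, -0.24 and -0.16, against -0.09. These medians were below 0 as well, and none of the nuclear subunits was called at these doses. In SW1783 at the high dose 1 of the 9, 13 and 17 tested subunits of the complexes was called, ATP5MC3 of complex V (-1.01 ± 0.15, adjusted p = 3.5e-10), part of its rotating ring. Of all genes, 18.2% were called there. With changes of any size, an unadjusted p under 0.05 was found for 5, 5 and 14 of the subunits. An adjusted p under 0.05 was found for 2 higher and 2 lower in complex III, 1 higher and 4 lower in complex IV and 1 higher and 9 lower in complex V, with medians of -0.06, -0.11 and -0.20. Among all genes, 22.6% were lower with an adjusted p under 0.05. The RNA handling list had 2 higher and 4 lower calls there, where 8.66% of all genes were called higher and 9.57% lower. SUPV3L1, a helicase that takes part in mitochondrial RNA decay, rose by a log2 fold change of 1.08, POLRMT, the mitochondrial RNA polymerase, rose by 0.74, and FASTKD5, which is needed to process some of these mRNAs, fell by 1.06. At the medium dose in SW1783, 0 of 27 were called by DESeq2 or edgeR (DESeq2 called 3.81% of all genes), and 11 had an unadjusted p under 0.05. Of 5 genes for the replication of mitochondrial DNA, 0 were called at the high dose in either line by either tool, with 4 unadjusted p-values under 0.05 in SW1783 and 0 in HT29. DESeq2 called 18.2% of all genes in SW1783 and 2.92% in HT29 at that dose.

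With wortmannin the nuclear subunits were lower while the mitochondrial ones were not. In HT29, 8 of 9 tested subunits of complex III, 10 of 11 of complex IV and 13 of 17 of complex V were lower with an adjusted p under 0.05 (11.1% of all genes were), with medians of -0.31, -0.38 and -0.38, and 1 of each passed 1.5-fold. The 6 mitochondrial genes had a median of -0.03. In SW1783, 7 of 9, 5 of 11 and 11 of 17 were lower (20.1% of all genes), with medians of -0.15, -0.08 and -0.19, and the median of the mitochondrial genes was 0.20. None of the 22 mitochondrial transfer RNAs had enough counts to be tested.

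The changes of all genes were compared with those of the summed counts of the 6 genes over 8 log2 fold changes (4 treatments in 2 lines). This is a description of 9623 genes over 8 points, and the 3 doses of a line share vehicle libraries. The summed counts changed by -0.25, -0.54 and -0.30 at the low, medium and high dose in SW1783 and by -0.08, -0.28 and -1.10 in HT29. MT-ND4 was the most alike (r = 0.996), followed by MT-ATP6, MT-ND4L, MT-CO2, MT-CO3 and MT-CO1 (r = 0.991 to 0.982). The 6 genes are themselves part of the sum, which fixes much of their likeness to it in advance. MT-CYB ranked 53rd (r = 0.869) and MT-ATP8 ranked 140th (r = 0.791). The other complex I genes ran from MT-ND3, ranked 31st (r = 0.893), to MT-ND6, ranked 2210th (r = 0.239). MT-RNR1 and MT-RNR2 had r = -0.803 and -0.845. The change of the sum furthest from 0 was that of the high dose in HT29, and its weight in these values of r was not tested. Outside the mitochondrial genome the highest were MTCO1P12, a nuclear copy of MT-CO1 (r = 0.968), MAN2B1 (r = 0.963), ITGA1 (r = 0.959), KDM4B (r = 0.949) and TP53INP2 (r = 0.942). The changes of MAN2B1 and KDM4B were all within 0.26 of 0 on the log2 scale.

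Nuclear copies of the members add an uncertainty, since reads that match both were divided by a model. MTATP6P1 (chromosome 1, 633696 to 634376) is 98.5% identical to MT-ATP6 and had a mean count of 13845. It and other copies held 10.1 to 14.6% of the joint counts of MT-ATP6 and its copies on average per group. With those counts added, MT-ATP6 at the medium dose in SW1783 changed by -0.58 and was no longer past 1.5-fold. MTCO1P12 (98.7% identical to MT-CO1) had a mean count of 1047, and copies held at most 0.5% of the joint counts of MT-CO1 and its copies in any library.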

How the data were processed

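The members and gene lists were chosen with earlier results of these data known. RNA was prepared by the authors as directional mRNA libraries and sequenced as 100 bp paired-end reads on an MGI instrument. The labels name FastQC 0.11.9, Trim Galore 0.6.5, STAR 2.7.3a and RSEM 1.3.3 on GRCh38, and the methods give other versions for the trimming and alignment. The values deposited by the authors are RSEM expected counts per gene and library, without normalization. Of them 8.84% were not whole, and all were rounded. Of 60675 Ensembl identifiers, 56558 matched a symbol. How RSEM was set for strand was not given in the sources used here.

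Following the study's methods, differential expression was tested with DESeq2 1.42.0 (R 4.3.3) by a two-sided Wald test, with Benjamini-Hochberg adjustment over all genes of a contrast and default size factors, filtering and outlier handling. The fits held 12 libraries of a line in batch B, 6 in batch A, and 24 or 12 libraries for differences between lines. edgeR 4.0.16 (quasi-likelihood test) was an alternative. Changes are log2 fold changes ± SE. Named genes were all 6 members, at most 3 called genes of each list per line at the high dose by size of change (mean normalized count of 100 or more), and the 5 genes outside the mitochondrial genome most alike. The remaining genes were named after their values had been seen. Identity of nuclear copies was computed by pairwise alignment. Scripts were tested on simulated data. Alternatives were TMM scaling, size factors without mitochondrial genes, a filter on low counts, added counts of nuclear copies, fits of only the groups compared, a replicate block, no fold threshold, changes relative to the summed mitochondrial mRNAs, shares outside ribosomal RNA, and leaving out each replicate.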

Additional observations from a re-analysis of the deposited data

Results flagged for a closer look

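The response to the high dose of ACD differed between SW1783 and HT29 by the test of the difference itself for 5 genes. The log2 fold change in SW1783 minus that in HT29 was 0.68 for MT-CO1, 0.74 for MT-CO2, 0.89 for MT-CO3, 1.02 for MT-ATP6 and 1.44 for MT-ATP8. All 5 were positive under each of the 17 alternatives with a test, and MT-CO3, MT-ATP6 and MT-ATP8 were called under each of them. Replicate 3 of the high dose in HT29 decided the call of MT-CO1 and MT-CO2, which were 0.52 (adjusted p = 8.66e-04) and 0.53 (adjusted p = 0.00813) without it and so under 1.5-fold, while over all alternatives their adjusted p-values ranged from 2.26e-06 to 0.00278 and from 1.91e-05 to 0.0263. Without replicate 2 of the same group, the library that stood apart, MT-CYB was called as well, at 0.88 (adjusted p = 0.00106, range over alternatives 0.00106 to 0.469). Groups of 3 were not tested for outlying samples.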

How the results depend on the processing

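Counts of calls among the 6 genes (within 1.5 times) and their shares of all counts (within 1 SD) stayed close to the reported values in 115 of 121 recomputations under other settings and in 121 of 126 with a library left out. The changes of single genes stayed the same in 585 of 642 recomputations under other settings and in 647 of 684 with a library left out. Under other settings, 36 moved by 1 SD or more, all of them relative to the summed mitochondrial mRNAs. A further 16 gained a call, 4 lost one and 1 changed sign. Without the fold threshold, 4 genes passed at the high dose and 4 at the low dose in SW1783, and 5 with wortmannin. The count for the high against the medium dose in HT29 was 2 with edgeR and 2 to 5 with a library left out. Leaving out a library gave 0 to 1 calls at the low dose in HT29, where the call was MT-ATP8 (-0.92) without vehicle replicate 3. It gave 3 to 6 calls for the difference between lines at the high dose, and 0 to 1 for that with wortmannin, where the call was MT-ATP8 (0.87) without replicate 3 of the HT29 vehicle in batch A. MT-CYB at the high dose in HT29 was called with TMM scaling (-0.76, adjusted p = 0.0431). Outside MT-RNR1 and MT-RNR2 the 6 genes held a mean share of 2.15% at the high and 1.86% at the medium dose in SW1783. Relative to the summed mitochondrial mRNAs, MT-CO1 at the high dose in HT29 was at 0.11, against -0.97 as reported. A fall shared by the mitochondrial mRNAs does not show in that setting. The 6 genes held 68.1 to 70.4% of the mitochondrially encoded mRNA counts in the HT29 vehicles and 66.9 to 70.6% at the high dose. The complex I mRNAs held 2.25 to 2.65% of all counts in these vehicles and 0.88 to 1.35% at the high dose.

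Signs changed with a library left out only for values that were not called. At the low dose in HT29 the ranges were -0.14 to 0.11 for MT-CO1, -0.18 to 0.09 for MT-CO3, -0.36 to 0.12 for MT-ATP6 and -0.40 to 0.01 for MT-CYB. With wortmannin in HT29 they were -0.12 to 0.09 for MT-CO2, -0.08 to 0.11 for MT-CO3, -0.16 to 0.01 for MT-ATP6 and -0.11 to 0.03 for MT-CYB. For the difference between lines they were -0.31 to 0.37 for MT-ATP8 at the medium dose, and -0.19 to 0.11 for MT-CO2, -0.40 to 0.08 for MT-ATP6 and -0.23 to 0.17 for MT-CYB at the low dose. The cause of these changes was not tested.

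Within batches the replicate numbers were not taken to pair the libraries. Deviations from group means in libraries with the same number correlated at -0.118 to 0.221 and -0.461 to 0.326 in batch B of SW1783 and HT29. With different numbers they correlated at -0.158 to 0.098 and -0.495 to 0.528. In SW1783 the low and medium dose gave 0.158, 0.124 and 0.193 for the same number and -0.158 to -0.006 otherwise. Same-numbered pairs of a vehicle and a dose gave -0.118 to -0.007 there, so some pairing among the dosed libraries of SW1783 is possible. With the replicate number as a block, MT-CYB at the high dose in HT29 was called (-0.80, adjusted p = 0.0365), which made 6 calls, and no other call of the 6 genes changed. All 6 genes lay above the floor for a count of 0 in every library, and with 3 libraries per group the standard errors rest on few replicates.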
